A study of Mus musculus with 96 samples.

Results

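The 10 genes described here write, copy, remove or act on 2 repressive marks of chromatin, DNA methylation and the methylation of histone H3 by Polycomb repressive complex 2 (PRC2). They were taken by symbol from a table of gene read counts in single blood-forming cells of the mouse embryo. All 10 were in the table, which held 19836 genes after rows of one symbol were summed, and all 10 were among the 15239 genes with at least 30 reads over the 96 cells. The members are the DNA methyltransferases Dnmt1, Dnmt3a and Dnmt3b, the Dnmt1 partner Uhrf1, the methylcytosine dioxygenases Tet1, Tet2 and Tet3, and the PRC2 genes Ezh1, Ezh2 and Eed.

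The cells came from C57BL/6 embryos with no genetic change or treatment named in the labels, and were sorted at 1 cell per well. The E11.5 cells were pre-HSCs, the labels' name for precursors of haematopoietic stem cells (HSCs): 48 from the aorta-gonad-mesonephros region (AGM) and 16 from the yolk sac, both gated as Ter119-CD11b-CD144+c-kit+EPCR+. The fetal liver HSCs were 16 cells at E12.5, gated as Ter119-Sca-1+c-kit+EPCR+, and 16 cells at E14.5, gated as Ter119-Sca-1+c-kit+CD48-CD150+. AGM and yolk sac cells shared age and gate. Between AGM and liver the tissue, age and gate changed together, and between the liver groups the age and gate, so their parts in those differences cannot be told apart. No animal or litter is named, so each group was 1 sample, no test across samples was made, and every interval covers counting error only. Reads copied by PCR and carrying no molecular identifier are not separate molecules, and differences between embryos are not covered.

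DNA methylation is put on unmethylated sites by Dnmt3a and Dnmt3b and copied at the replication fork by Dnmt1, which Uhrf1 recruits to sites methylated on one strand. The Tet enzymes oxidise methylcytosine and so begin its removal. PRC2 methylates H3K27 through a catalytic subunit, either Ezh2, known mainly from dividing cells, or Ezh1, known from resting and adult cells, with Eed and Suz12 as the core subunits that hold the complex together. Dnmt3a, Tet2 and Ezh2 are best known in blood as genes mutated in clonal and malignant disease, and loss of Eed, Ezh1 or Dnmt1 in mice disturbs stem cells of the blood.

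Promoter sequences are shown first for the genes on which the later comparison with S-phase genes turns. They are RefSeq promoters on GRCm38.p6, from 250 bases before to 50 bases after the start site, on the gene's strand and 5′ to 3′, and capitals mark the E2F motif, spelled TTTCCCGC, TTTGGCGC, TTTCGCGC or TTTGCCGC and searched on both strands. E2F factors are known to switch on S-phase genes. The Dnmt1 promoter (chr9:20952574-20952873, minus strand) had 1 match before and 1 match 33 bases after the start, the Uhrf1 promoter (chr17:56304063-56304362, plus strand) 1 match before, and the Ezh2 promoter (chr6:47594981-47595280, minus strand) 1 match 3 bases after. Ezh1 (chr11:101226414-101226713, minus strand) is set beside its counterpart Ezh2 and had 0 matches in this window. Dnmt1 and Uhrf1 each have more than 1 listed promoter, and those not shown had 0 matches.
Dnmt1: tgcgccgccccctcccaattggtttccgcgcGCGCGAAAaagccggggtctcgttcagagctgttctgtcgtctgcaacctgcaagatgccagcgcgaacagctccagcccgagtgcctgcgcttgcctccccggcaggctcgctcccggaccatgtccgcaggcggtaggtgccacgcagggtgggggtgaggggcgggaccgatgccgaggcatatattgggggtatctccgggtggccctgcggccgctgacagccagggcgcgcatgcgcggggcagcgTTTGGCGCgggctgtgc
Uhrf1: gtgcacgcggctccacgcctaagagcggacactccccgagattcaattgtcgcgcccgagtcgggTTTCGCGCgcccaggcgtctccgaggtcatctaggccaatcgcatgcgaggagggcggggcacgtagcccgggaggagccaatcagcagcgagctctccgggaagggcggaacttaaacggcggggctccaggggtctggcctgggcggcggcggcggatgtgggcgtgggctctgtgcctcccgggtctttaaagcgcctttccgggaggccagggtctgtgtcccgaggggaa
Ezh2: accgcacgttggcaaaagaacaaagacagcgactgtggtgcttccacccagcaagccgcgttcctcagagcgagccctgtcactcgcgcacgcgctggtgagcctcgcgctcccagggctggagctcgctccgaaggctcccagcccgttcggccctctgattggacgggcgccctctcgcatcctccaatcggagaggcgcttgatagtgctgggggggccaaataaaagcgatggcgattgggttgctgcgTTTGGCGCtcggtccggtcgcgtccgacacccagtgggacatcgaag
Ezh1: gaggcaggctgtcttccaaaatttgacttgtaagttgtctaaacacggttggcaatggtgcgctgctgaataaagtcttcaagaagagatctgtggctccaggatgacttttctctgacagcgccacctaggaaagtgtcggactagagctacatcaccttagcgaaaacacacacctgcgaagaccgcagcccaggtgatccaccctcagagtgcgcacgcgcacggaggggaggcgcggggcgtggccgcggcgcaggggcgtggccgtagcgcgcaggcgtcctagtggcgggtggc
The motif was in 3 of the 15 promoters listed for the 10 members, all 3 shown here, and in 744 of 32851 promoters in the whole set, or 2.26%. It was also in promoters of 6 of the 14 S-phase genes with an entry. Member promoters were rich in CpG, the dinucleotide that DNA methyltransferases act on, with a median of 23 CpG against 7 over all promoters. A match is a run of letters and not a measured binding site.

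Depth and cell content set the frame for what follows. Reads per cell ran from 250235 to 1926882, and the pooled reads were 60280645 for AGM, 22306075 for yolk sac, 19053123 for the E12.5 liver and 20585452 for the E14.5 liver. The median cell had 5522.5 genes with a read for AGM, 5349.5 for yolk sac, 4036 for the E12.5 liver and 4839 for the E14.5 liver. Haematopoietic markers were summed to between 765 and 868 CPM (reads scaled to a common total) in all 4 groups. Erythroid markers reached 28909 CPM in E14.5 liver, with 5 of its 16 wells above 1000 CPM, against 68.5 CPM in AGM, and endothelial markers were 745 CPM in AGM against 281 to 332 CPM elsewhere. Of the defining endothelial markers, Kdr had 0 reads in the earlier liver group, and Cldn5 and Sox17 had 0 reads in the later one. Cell 8 of E12.5 liver stood apart with 1011 genes, 0 haematopoietic marker reads, 10694 CPM of erythroid and 11237 CPM of macrophage markers. AGM cells also differed along their label numbers: the median cell had 6572 genes in cells 1 to 16, 5483.5 in cells 17 to 32 and 4493.5 in cells 33 to 48, and what the numbers stand for is not given in the labels.

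The median cell had reads of more of the regulators at E11.5 than in the liver. Values given for the 4 groups together are in the order AGM, yolk sac, E12.5 and E14.5 throughout. The median cell had reads of 7 of the 10 members in both E11.5 groups, 4.5 in the liver at E12.5 and 5 at E14.5, with ranges over cells of 2 to 10, 4 to 10, 1 to 9 and 2 to 7. At 690000 reads drawn from each cell, a depth that left out 5 AGM, 0 yolk sac, 2 E12.5 and 2 E14.5 cells, the medians were 7, 7, 5.5 and 5.5. Genes as a whole had lower shares in liver too: the median share of cells with a read over all genes was 31.25% in both E11.5 groups and 18.75% in both liver groups, beside 78.1%, 78.1%, 53.1% and 56.25% over the members. Not every member followed: Ezh1 had its highest share of cells at E12.5 (43.75%) and Eed at E14.5 (93.75%). In E12.5 liver 2 cells had reads of only 1 member, cell 8 of Ezh2 and cell 12 of Eed.

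**Figure D1:**
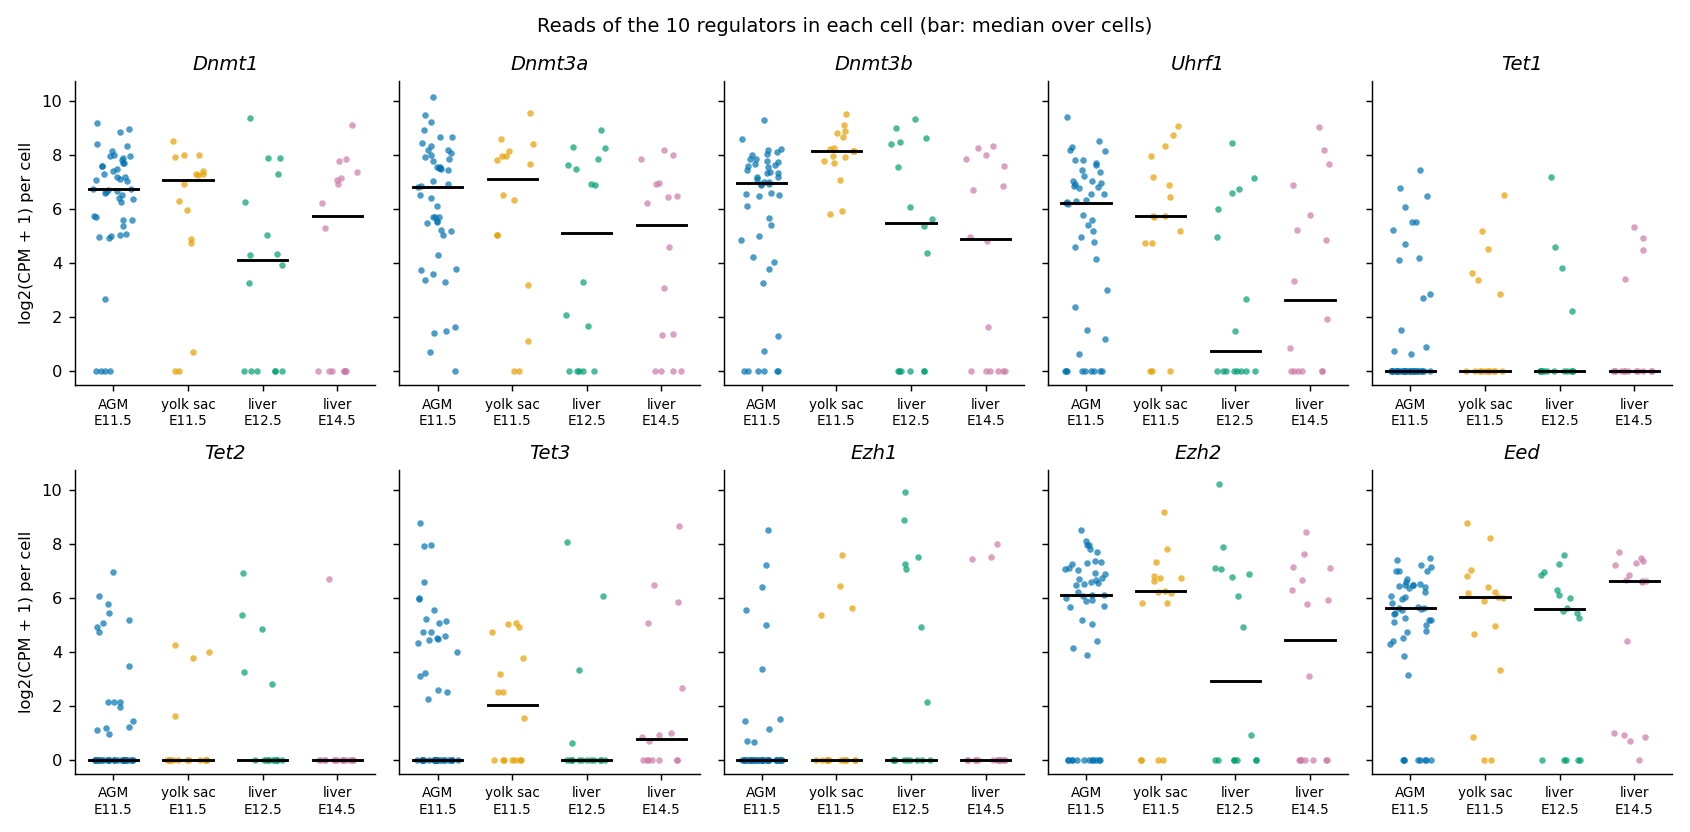
Level of each regulator in each of the 96 cells, as log2(CPM + 1) on the vertical axis, by group on the horizontal axis, with each point 1 cell and the bar the median over cells. Dnmt3b has a read in all 16 yolk sac cells, while Tet1, Tet2 and Ezh1 have medians of 0 in all 4 groups.

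Dnmt1 and Uhrf1, the pair that copies methylation through cell division, were abundant and widely detected at E11.5 and patchy in the liver. Dnmt1 had reads in 44 of the 48 AGM cells (91.7%, exact 95% Clopper-Pearson interval 80.0 to 97.7) and 14 of the 16 yolk sac cells (87.5%, 61.7 to 98.4), against 10 of 16 at E12.5 (62.5%, 35.4 to 84.8) and 9 of 16 at E14.5 (56.25%, 29.9 to 80.2). Its level over cells had a lowest value of 0 CPM in all 4 groups, with medians of 107, 137, 16.3 and 56.3 CPM and highest values of 582, 365, 661 and 552 CPM in AGM, yolk sac, E12.5 and E14.5. The ranges of the groups overlapped fully, and the liver groups had more cells without a read while their highest cells were about as high.

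Pooled Dnmt1 was 142.2 CPM in AGM (exact 95% Poisson interval 139.2 to 145.2), 134 in the yolk sac (129.4 to 139.1), 98.4 at E12.5 (94.0 to 103) and 114 at E14.5 (109 to 119). Each liver value leaned on 1 cell. Cell 14 held 53.4% of the E12.5 reads, and without it the pooled level was 49.8 CPM, and cell 4 held 45.3% of the E14.5 reads, without which it was 68.9 CPM. The order of the liver groups therefore changed with 1 cell: the log2 ratio of E14.5 over E12.5 was 0.21, and became 1.18 without E12.5 cell 14 but -0.51 without E14.5 cell 4.

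Uhrf1, the reader of sites methylated on one strand, had the same order of groups in pooled reads except for yolk sac, which stood highest: 109 CPM in AGM (106 to 111), 143.01 in the yolk sac (138.1 to 148.1), 57.8 at E12.5 (54.4 to 61.3) and 73.9 at E14.5 (70.3 to 77.7). It had reads in 39 of 48, 13 of 16, 8 of 16 and 10 of 16 cells. Over cells the lowest value was 0 in every group, the medians were 74.6, 52.7, 0.911 and 5.90 CPM, and the highest cells had 689, 537, 346 and 530 CPM. The typical liver cell thus had few or no Uhrf1 reads while a few had as many as the high E11.5 cells. Single cells, cell 11 at E12.5 and cell 8 at E14.5, carried much of the pooled value, which was 29.2 CPM and 47.5 CPM without them, and E14.5 cell 8 is 1 of the 5 wells above 1000 CPM of erythroid markers, with 135950 CPM. Without those 5 wells the Uhrf1 ratio of E14.5 over AGM was -1.43 in place of -0.55.

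Dnmt1 and Uhrf1 were found together about as often as their separate shares give. Both had reads in 36 of the 48 AGM cells, 12 of the 16 from yolk sac and 6 of the 16 at each liver age, and neither in 1, 1, 4 and 3 cells. The product of their shares gives both in 35.75, 11.4, 5 and 5.63 cells. Their rank correlation over the 96 cells (Spearman's rho of CPM) was 0.28, the highest of the 45 pairs of members, which ran from -0.23 to 0.28 with a median of 0.10. All such correlations are descriptions over cells that share library preparation and differ in depth and detection.

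Of the de novo methyltransferases, Dnmt3b was highest in yolk sac and Dnmt3a was lowest in E14.5 liver. The yolk sac cells stood out for Dnmt3b, with a read in all 16 cells (100%, 79.4 to 100) and a lowest cell of 55.3 CPM, a median of 284 and a highest of 731 CPM. AGM had Dnmt3b reads in 42 of 48 cells, with a lowest of 0, a median of 125 and a highest of 628 CPM. Both liver groups had reads in 10 of 16 cells, with medians of 44.5 CPM in the earlier and 28.6 CPM in the later group and highest cells of 641 and 323 CPM. Yolk sac was the one group with no empty cell, although its range overlapped that of AGM.

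Pooled Dnmt3b was 303 CPM in the yolk sac (296 to 311), 183.5 at E12.5 (177.5 to 189.7), 140.2 in AGM (137.2 to 143.2) and 109 at E14.5 (105 to 114). The yolk sac level was 2.16 times that of AGM, a log2 ratio of 1.11 on CPM with 1 CPM added, the scale of all ratios here. Leaving out any 1 cell gave 0.95 to 1.21, the lowest without yolk sac cell 5, which brings it just under the 2-fold line. Against AGM cells 1 to 16 alone, where Dnmt3b was 155.6 CPM, the gene was also no longer past 2-fold. E12.5 liver over AGM was 0.39 in pooled reads while the share of cells went the other way, from 87.5% to 62.5%, so the positive E12.5 cells held more reads each, with a median of 265 CPM among positive cells against 140.5 CPM in AGM.

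Dnmt3a was the most widely detected member in AGM, in 47 of 48 cells (97.9%, 88.9 to 99.9), and was found in 14 of the 16 from yolk sac, and in 11 and 12 of the 16 in the earlier and later liver. Medians over cells were 113, 148.2, 63.0 and 48.9 CPM, with a lowest of 0 in each group and highest cells of 1124, 746, 482 and 288 CPM. Pooled levels were lower in liver, 185.4 CPM in AGM (181.98 to 188.9), 180.9 in the yolk sac (175.4 to 186.6), 134 at E12.5 (129.1 to 139.6) and 97.9 at E14.5 (93.7 to 102.3). The AGM and yolk sac intervals overlapped, and the log2 ratio of E14.5 over AGM was -0.91, short of 2-fold. That ratio was below 0 under every processing setting tried, from -1.22 to -0.66.

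Per kilobase of exon, Dnmt3b was above Dnmt3a in all 4 groups. The lengths merge the exons of all transcripts of a gene, 5.106 kb for Dnmt3b and 16.642 kb for Dnmt3a. In CPM, Dnmt3a was the higher in AGM, at 185.4 against 140.2, and Dnmt3b in the other groups. Which transcripts the cells held was not tested, and the order per kilobase depends on it. The ratio of Dnmt3b to Dnmt3a reads per kilobase was 2.46 in AGM (95% counting interval 2.40 to 2.54), 5.47 in the yolk sac (5.26 to 5.69), 4.46 at E12.5 (4.23 to 4.69) and 3.63 at E14.5 (3.42 to 3.86). With 1 cell left out it stayed between 2.26 and 2.78 in AGM and between 5.04 and 6.27 in yolk sac, so these ranges did not meet. The E12.5 range of 3.52 to 5.13 and the E14.5 range of 2.93 to 4.80 overlapped. At least 1 read of any DNA methyltransferase was present in every cell of AGM, yolk sac and E14.5 liver, and in 14 of the 16 E12.5 cells.

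**Figure D2:**
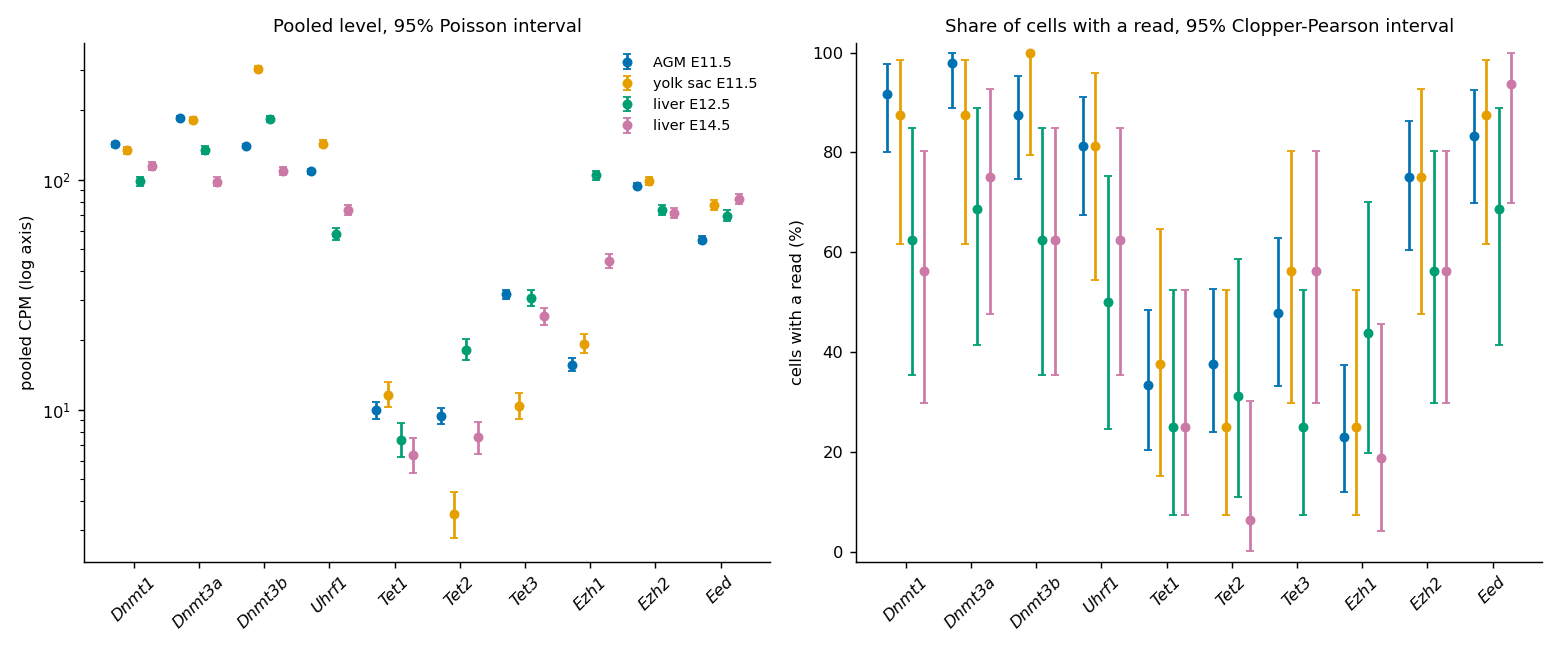
Pooled level of each regulator in CPM on a log axis (left) and percent of cells with a read (right), by group, with exact 95% Poisson and Clopper-Pearson intervals that cover counting error only. Dnmt3b is highest in yolk sac at 303 CPM, Ezh1 is highest in E12.5 liver at 104 CPM, and the shares of the 16-cell groups have wide intervals that mostly overlap.

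Per kilobase the Tet genes were the least abundant members in all 4 groups, and their pooled levels rested on few cells. In AGM the highest of them, Tet3, lay just below Ezh1, at 1.898 against 2.10 CPM per kilobase, and 43.5% of the Ezh1 reads there were in AGM cell 40. Without that cell Ezh1 was at 9.01 CPM and lay below Tet3 per kilobase, so their order in AGM rests on 1 cell. Tet3, the most abundant of the 3 per kilobase in AGM and both liver groups, was at 31.7 CPM in AGM (30.3 to 33.1), 10.4 in the yolk sac (9.11 to 11.8), 30.5 at E12.5 (28.1 to 33.1) and 25.4 at E14.5 (23.3 to 27.7). It had reads in 23 of 48, 9 of 16, 4 of 16 and 9 of 16 cells. The share of yolk sac cells with a read was thus no lower than in AGM, at 56.25% against 47.9%, while no yolk sac cell passed 32.9 CPM and the highest AGM cell had 440 CPM.

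The log2 ratio of yolk sac over AGM for Tet3 was -1.52, and -1.80 to -1.14 with any 1 cell left out. In the liver 1 cell carried most of the Tet3 reads at each age. E12.5 cell 4 held 75.4% of the reads, and without it the level was 8.21 CPM, and E14.5 cell 14 held 52.8%, leaving 12.4 CPM. The place of Tet3 above Tet2 and Tet1 at E12.5 rests on cell 4: per kilobase Tet2 was 0.591 times Tet3, and 2.30 times without that cell, and Tet1 was 0.262 times and 1.02 times. Of the 9 E14.5 cells with Tet3, 4 had a single read. The E14.5 over E12.5 ratio was -0.25, with 1.52 when E12.5 cell 4 and -1.23 when E14.5 cell 14 was left out, and so has no stable sign.

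Tet2, which in blood limits the self-renewal of stem cells, had reads in 18 of the 48 AGM cells (37.5%, 23.95 to 52.6), 4 of the 16 yolk sac cells (25%, 7.27 to 52.4), 5 of 16 E12.5 cells (31.25%, 11.02 to 58.7) and 1 of 16 E14.5 cells (6.25%, 0.158 to 30.2). The highest cells had 124, 18.2, 122 and 102.4 CPM, and the median cell in every group had 0. Pooled levels were 9.39 CPM in AGM (8.63 to 10.2), 3.50 in the yolk sac (2.76 to 4.36), 18.2 at E12.5 (16.3 to 20.2) and 7.58 at E14.5 (6.44 to 8.87). Yolk sac cell 1 held 44.9% of the yolk sac reads, and the level was 2.11 CPM without it. All reads at E14.5 were in cell 7. E12.5 cell 2 held 66.3% of the E12.5 reads, and without it the level there was 6.82 CPM, below that of AGM.

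The level of Tet2 followed the number of genes found in a cell more closely than that of any other member, with a rho of 0.49 over the 96 cells and 0.49 at a common depth of 690000 reads. Its detection also differed along the AGM label numbers, with reads in 10 of cells 1 to 16, 5 of cells 17 to 32 and 3 of cells 33 to 48, and Tet3 did likewise with 12, 7 and 4 cells. The Tet3 level went the other way, at 21.8, 29.6 and 43.3 CPM in the 3 blocks. The later blocks of 16 were set after the data were seen. The part of the label number in these results was not tested.

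Tet1 was low throughout, at 9.90 CPM in AGM (9.13 to 10.7), 11.6 in the yolk sac (10.2 to 13.1), 7.40 at E12.5 (6.23 to 8.73) and 6.36 at E14.5 (5.32 to 7.55). It had reads in 16 of 48, 6 of 16, 4 of 16 and 4 of 16 cells, and its highest cells had 171.96, 91.6, 144.4 and 39.7 CPM. The AGM and yolk sac intervals overlapped, as did those of the liver groups. A single cell held 50.2% of the yolk sac reads (cell 15), 70.9% of the E12.5 reads (cell 10) and 43.5% of the E14.5 reads (cell 1), and without these cells the levels were 6.18, 2.23 and 3.86 CPM. At least 1 Tet gene was read in 35 of the 48 AGM cells, 11 of the 16 from yolk sac, and 8 and 12 of the 16 in the earlier and later liver.

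Ezh1 had the largest pooled ratio of the 10 members in these comparisons, 2.66 on the log2 scale in E12.5 liver over AGM. Its gene lies at chr11:101191115-101226463 on GRCm38, and that of Ezh2 at chr6:47530139-47595341. Ezh1 had reads in 11 of the 48 AGM cells (22.9%, 12.0 to 37.3), 4 of the 16 yolk sac cells (25%, 7.27 to 52.4), 7 of 16 E12.5 cells (43.75%, 19.8 to 70.1) and 3 of 16 E14.5 cells (18.75%, 4.05 to 45.6). The 7 positive cells at E12.5 had 973, 471, 179.9, 152.4, 133, 28.99 and 3.40 CPM, and the 3 at E14.5 had 254, 184.1 and 173.4 CPM. In AGM the highest cell had 369 CPM, the next 148.4 CPM, and 6 of the 11 positive cells were under 10 CPM. The 4 yolk sac cells had 191.2, 86.3, 48.8 and 40.2 CPM. Only 2 AGM cells were therefore above 100 CPM, against 5 of 16 at E12.5 and 3 of 16 at E14.5.

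Pooled Ezh1 was 15.6 CPM in AGM (14.7 to 16.7), 19.4 in the yolk sac (17.6 to 21.3), 104.5 at E12.5 (99.96 to 109.2) and 44.3 at E14.5 (41.4 to 47.2). E12.5 liver was 6.68 times AGM in pooled CPM with nothing added, and the log2 ratio with 1 CPM added was 2.66. That log2 ratio ran from 2.12 without E12.5 cell 9 to 3.40 without AGM cell 40, which held 43.5% of the AGM reads. Yolk sac over AGM was 0.29, and -0.62 without yolk sac cell 10 or 1.03 without AGM cell 40. E14.5 liver over AGM was 1.44, and 0.89 without E14.5 cell 10, 0.98 without E14.5 cell 11 and 2.18 without AGM cell 40. E14.5 over E12.5 was -1.22, and -0.68 without E12.5 cell 9 or -0.87 without E12.5 cell 15. The group level of Ezh1 was above that of AGM at both liver ages under every setting tried, and the difference between liver ages was under 2-fold when either E12.5 cell was left out. The share of cells with a read went the other way at E14.5, at 18.75% against 22.9% in AGM. None of the Ezh1-positive E14.5 cells was 1 of the 5 wells above 1000 CPM of erythroid markers. Of the 3 E12.5 cells above that level, cells 8 and 11 had 0 Ezh1 reads and cell 2, at 2175 CPM of erythroid markers, had 152.4 CPM of Ezh1. Without the 5 E14.5 wells the ratio was 1.84 for E14.5 over AGM and -0.83 for E14.5 over E12.5.

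Ezh2, the catalytic subunit of dividing cells, was somewhat lower in liver. It had reads in 36 of the 48 AGM cells, 12 of the 16 from yolk sac, and 9 of the 16 at each liver age, with medians over cells of 67.6, 74.4, 15.02 and 30.5 CPM, a lowest of 0 in each group and highest cells of 365, 580, 1203 and 348 CPM. The pooled levels were 94.2 CPM in AGM (91.8 to 96.7), 98.5 in the yolk sac (94.5 to 103), 73.7 at E12.5 (69.9 to 77.7) and 71.8 at E14.5 (68.2 to 75.6). The intervals of AGM and yolk sac overlapped, and so did those of the liver groups. The highest E12.5 value came from cell 8, the cell with 1011 genes and macrophage and erythroid marker reads, and the pooled E12.5 level without it was 58.7 CPM.

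The balance of the catalytic subunits therefore differed between groups. Per kilobase, the ratio of Ezh1 to Ezh2 reads was 0.149 in AGM (95% counting interval 0.139 to 0.160), 0.176 in the yolk sac (0.159 to 0.196), 1.27 at E12.5 (1.19 to 1.36) and 0.553 at E14.5 (0.509 to 0.601). With 1 cell left out the AGM ratio ran from 0.0871 to 0.167 and the yolk sac ratio from 0.0849 to 0.227, while E12.5 ran from 0.838 without cell 9 to 1.62 without cell 8 and E14.5 from 0.348 to 0.719. The 2 liver groups thus stayed above both E11.5 groups whichever cell was left out, and E12.5 stayed above E14.5. Which of Ezh1 and Ezh2 was higher at E12.5 depended on few cells, since the ratio was under 1 without cell 9 and also without cell 15, at 0.838 and 0.933.

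Cells with Ezh1 reads but no Ezh2 reads numbered 2 of 48 in AGM, 2 of 16 in yolk sac, 4 of 16 at E12.5 and 1 of 16 at E14.5. Both genes had reads in 9, 2, 3 and 2 cells, Ezh2 alone in 27, 10, 6 and 7, and neither in 10, 2, 3 and 6. At E12.5, 4 of the 7 cells with Ezh1 had no Ezh2, whereas in AGM most Ezh1-positive cells also had Ezh2. The product of the separate shares gives both in 8.25, 3, 3.94 and 1.69 cells. The counts of cells with both were thus about what detection of each gene alone gives. The highest E12.5 cell, cell 9, had 973 CPM of Ezh1 and 0 reads of Ezh2.

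**Figure D3:**
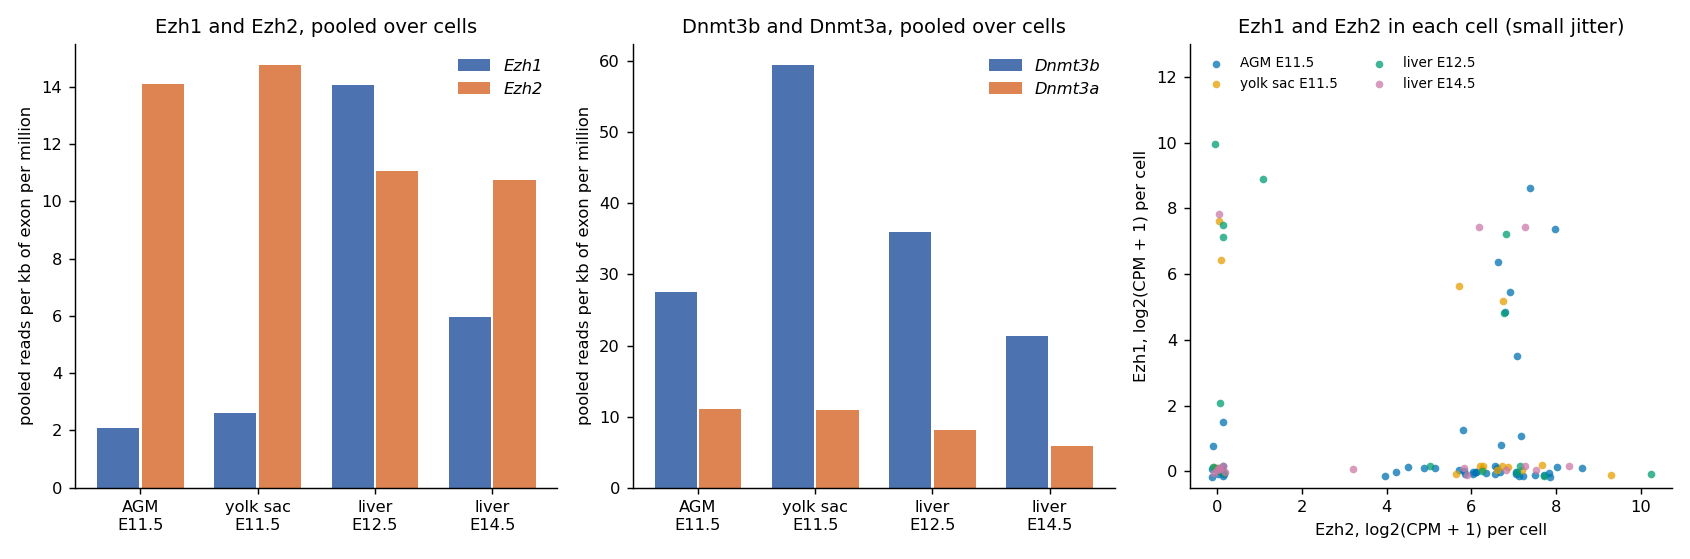
Pooled reads per kilobase of exon, scaled as CPM, for Ezh1 and Ezh2 (left) and for Dnmt3b and Dnmt3a (middle) by group, and Ezh1 against Ezh2 in each cell as log2(CPM + 1) with a small jitter so that points do not hide each other (right). Ezh1 exceeds Ezh2 in E12.5 liver alone, at a ratio of 1.27. Dnmt3b exceeds Dnmt3a in all 4 groups per kilobase of merged exons, but not in AGM in CPM.

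Eed, the subunit that binds the finished H3K27 mark, differed little between groups. Its pooled level was 54.8 CPM in AGM (53.0 to 56.7), 77.6 in the yolk sac (73.9 to 81.3), 69.6 at E12.5 (66.0 to 73.5) and 82.3 at E14.5 (78.5 to 86.4), and no comparison passed 2-fold. It had reads in 40 of 48, 14 of 16, 11 of 16 and 15 of 16 cells, with medians of 47.99, 63.97, 46.6 and 97.1 CPM, a lowest of 0 in each group and highest cells of 177.9, 442, 189.3 and 207.5 CPM. At E14.5, 4 of the 15 positive cells were under 10 CPM, so the share with at least 10 CPM was 68.75% there and at E12.5 alike. The core subunit Suz12 had pooled levels of 20.8, 14.9, 23.2 and 20.4 CPM and reads in 36 of 48, 14 of 16, 7 of 16 and 8 of 16 cells. Reads of Ezh2, Eed and Suz12 in the same cell were seen in 24 of the 48 AGM cells, 10 of the 16 from yolk sac, and 3 and 5 of the 16 in the earlier and later liver. Ezh2 and Suz12 each had a lower share of cells in liver. The counts were not set against the product of the separate shares, so they show nothing beyond detection of each gene.

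In the 4 comparisons of groups, 1 to 3 of the 10 members passed a 2-fold difference in pooled CPM, the size used here to name a difference in place of a test. The share of all genes beside each count is not matched for detection. The median member had reads in more cells than the median gene. Yolk sac over AGM passed in 3 of 10 members, Dnmt3b higher at 1.11, Tet2 lower at -1.21 and Tet3 lower at -1.52, beside 29.6% of all 15239 genes (8.61% higher and 21% lower). The Tet2 ratio was -0.86 without AGM cell 3. The median log2 ratio was 0.14 over the members and -0.20 over all genes. Dnmt1 at -0.08 and Dnmt3a at -0.04 were near 0. Scaling by median of ratios, which shifts all genes of a comparison alike, put them at 0.01 and 0.06, so no direction is given for either.

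E12.5 liver over AGM passed in 1 of 10 members, Ezh1 at 2.66, beside 41.7% of all genes (15.6% higher and 26% lower). Uhrf1 at -0.90 and Tet2 at 0.89 were next in size, and the members' median was -0.20, equal to that of all genes at -0.20. Without E12.5 cell 11 the Uhrf1 ratio was -1.86, and without E12.5 cell 14 that of Dnmt1 was -1.49 in place of -0.53. Without E12.5 cell 4 the Tet3 ratio was -1.83 in place of -0.05, and without E12.5 cell 2 the Tet2 ratio was -0.41.

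E14.5 over E12.5 liver passed in 2 of 10 members, Tet2 at -1.16 and Ezh1 at -1.22, beside 36.9% of all genes (18.7% higher and 18.2% lower), with a median of -0.22 over the members and 0 over all genes. The Tet2 difference rests on single cells, being 0.13 when E12.5 cell 2 and -4.26 when E14.5 cell 7 was left out. With the 5 E14.5 wells of high erythroid marker reads left out, 0 of 10 members passed 2-fold. The 3 E12.5 cells above the same 1000 CPM were kept, so only the E14.5 side was filtered. E14.5 liver over AGM passed in 1 of 10, Ezh1 at 1.44, beside 40.5% of all genes, with medians of -0.34 and -0.23. The comparisons share cells, AGM in 3 of them and E12.5 liver in 2, so they are not independent of each other.

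**Figure D4:**
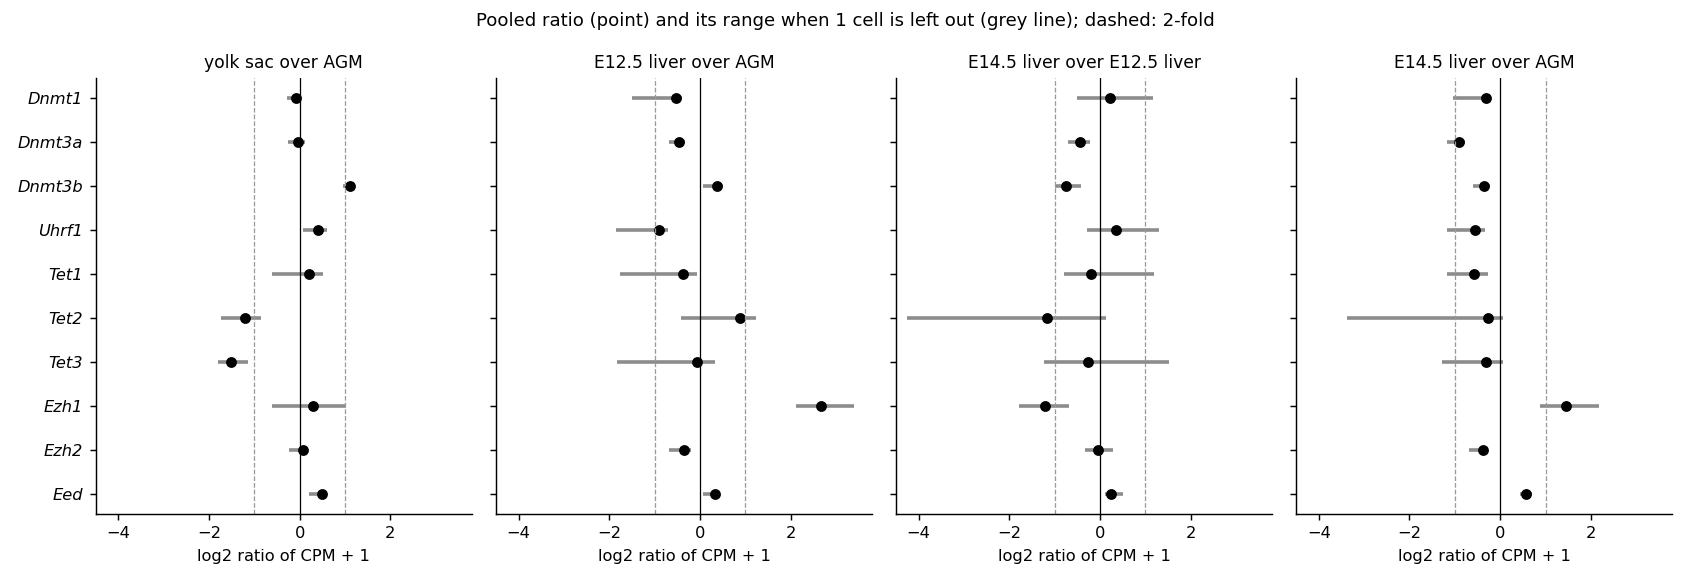
Log2 ratio of pooled CPM with 1 CPM added for the 10 regulators in the 4 comparisons (points), with the range when any 1 cell is left out (grey lines) and dashed lines at 2-fold. Ezh1 in E12.5 liver over AGM stays past 2-fold whichever cell is left out, from 2.12 to 3.40, whereas the line of Tet2 in E14.5 over E12.5 liver reaches from -4.26 to 0.13.

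Uhrf1 and Dnmt1 followed the S-phase genes from cell to cell. The 17 S-phase genes, such as the Mcm helicase genes, Pcna and the nucleotide synthesis genes Rrm2 and Tyms, were summed in each cell. Uhrf1 had a rho with that sum of 0.54 over 96 cells, 0.72 over the 48 AGM cells and 0.54 over 87 cells at a common depth. Dnmt1 had 0.40, 0.38 and 0.43, whereas Ezh2, whose promoter also held the E2F motif, had 0.07, 0.14 and 0.07. Ezh1 went the other way at -0.23, -0.28 and -0.24. Dnmt3b instead followed the 13 mitosis genes, at 0.37, 0.33 and 0.34.

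The genes most like each member across cells were sought among 4421 genes with a read in at least 50% of cells, by rho over all 96 cells, for the 6 members detected as widely. For Dnmt1 they were Tyms (0.54), which makes thymidylate for replication, Rrm2 (0.45), a subunit of ribonucleotide reductase, and Ddb1 (0.44), an adaptor of a ubiquitin ligase. For Uhrf1 they included Pcna (0.53), the sliding clamp of DNA polymerase, and Mrfap1 (0.49). The other 4 had no such replication genes among their nearest. Dnmt3a had Senp6 (0.52), Rgl2 (0.52) and Dusp2 (0.46), and Dnmt3b had Sugp1 (0.52), Srfbp1 (0.51) and Cops6 (0.45). Ezh2 had Tax1bp1 (0.40), Slc25a11 (0.40) and Timm44 (0.39), and Eed had Wdr12 (0.37), Cox18 (0.37) and Elp4 (0.35). Over the 48 AGM cells alone rho was 0.66 for Pcna but 0.0028 for Wdr12, 0.22 for Mrfap1, 0.25 for Ddb1 and 0.27 for Dusp2, and it ran from 0.28 (Elp4) to 0.60 (Rgl2) for the other genes named. These are the top values of a long list and describe only these cells.

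**Figure D5:**
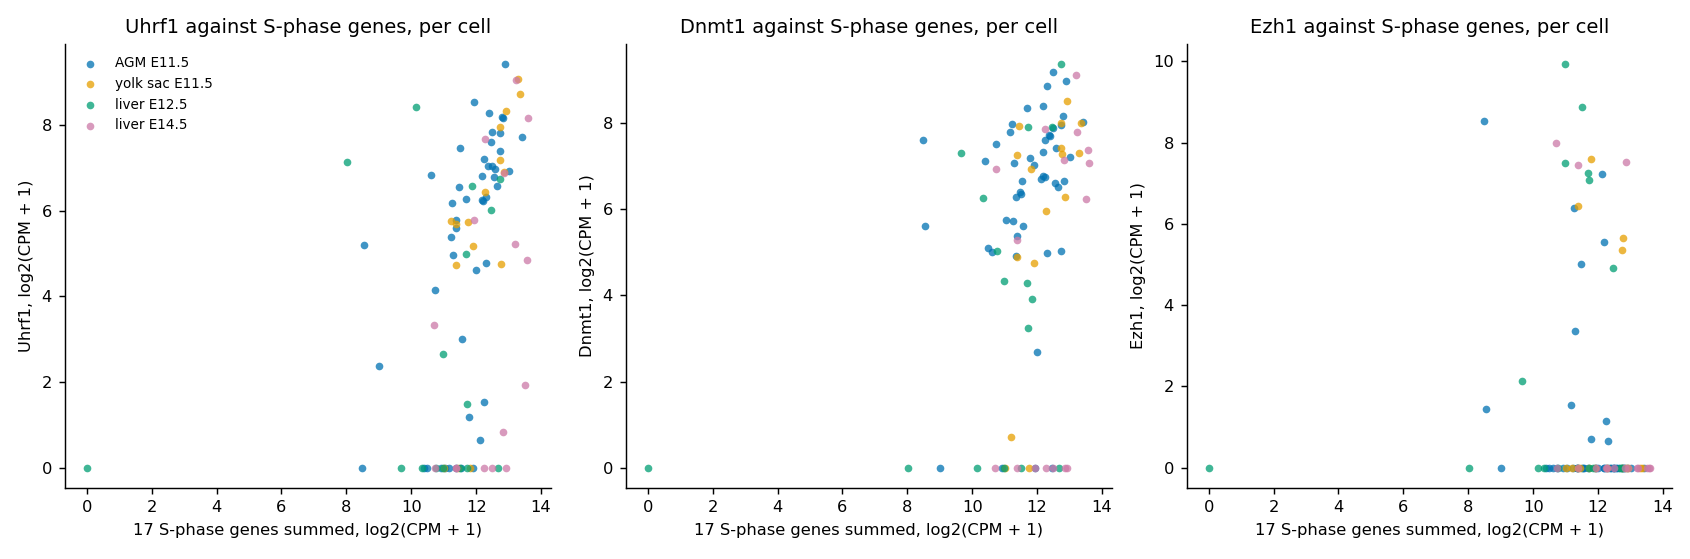
Uhrf1 (left), Dnmt1 (middle) and Ezh1 (right) in each cell against the summed level of 17 S-phase genes, all as log2(CPM + 1), with each point 1 cell coloured by group. Uhrf1 is higher where the sum is higher, with a rho of 0.54, while Ezh1, found in few cells, has a rho of -0.23.

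The S-phase genes themselves did not keep the order of Dnmt1 and Uhrf1 across groups. Their pooled sum was 4323 CPM in AGM and 5629 in yolk sac, with 2901 in the earlier and 6855 in the later liver, so E14.5 was highest for the list but below AGM for Uhrf1 (73.9 against 109 CPM) and Dnmt1 (114 against 142.2 CPM). From E12.5 to E14.5, 12 of 17 S-phase genes were at least 2-fold higher and 0 lower, with a median of 1.22, beside 18.7% of all genes higher. Rrm2 had the largest ratio at 4.12, from 26.4 to 475 CPM, and 4.75 without E12.5 cell 1. Uhrf1 and Dnmt1 had ratios of 0.35 and 0.21 in that comparison. From AGM to E12.5 the S-phase median was -0.57, with 3 of 17 past 2-fold, all lower, beside 26% of all genes lower. In that comparison 6 of 13 mitosis genes were at least 2-fold higher, beside 15.6% of all genes, with a median of 0.81. The pooled mitosis sum was 2232 CPM in AGM and 4413 at E12.5, whereas the median cell had 1052 and 778 CPM, and 7 of the 16 E12.5 cells were above 1000 CPM.

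Other genes of these pathways, from lists of partners and opposing enzymes, are given with the same shares of all genes as background, 29.6%, 41.7%, 36.9% and 40.5% past 2-fold in the 4 comparisons. The H3K27 demethylases, which remove the PRC2 mark, were low in liver. Kdm6a was at 27.95 CPM in AGM and 13.54 in yolk sac but 1.68 in the earlier and 8.55 in the later liver, with reads in 23 of 48, 7 of 16, 3 of 16 and 2 of 16 cells. Kdm6b was at 38.1, 29.3, 1.26 and 6.51 CPM, with reads in 36 of 48, 9 of 16, 3 of 16 and 2 of 16 cells. E12.5 over AGM was -3.43 for Kdm6a and -4.11 for Kdm6b, and with 1 cell left out these ran from -4.38 to -2.99 and from -4.60 to -3.97, lowest in both cases without E12.5 cell 1. At E14.5 Kdm6b rested on cell 11, without which its ratio to AGM was -5.08 in place of -2.38.

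Of the 8 PRC2 partners, 1 was past 2-fold in yolk sac over AGM, higher, and 1 in E12.5 over AGM, lower. In E14.5 over E12.5 and in E14.5 over AGM 3 were, 2 higher and 1 lower each time. Phf1 was higher in yolk sac over AGM at 2.03, and -0.05 without yolk sac cell 6. Over E12.5, Phf1 was higher at E14.5 at 1.43 and Phf19 at 1.09, and over AGM at 1.39 and 1.08. Without E14.5 cell 14 Phf1 was 0.59 and 0.54, and without E14.5 cell 9 Phf19 was -3.16 and -3.17. Jarid2, which helps PRC2 find its targets, was lower at E12.5 than in AGM at -1.50, and -2.67 without E12.5 cell 10. Aebp2, another accessory subunit, was lower at E14.5 than at E12.5 at -2.41, from 18.3 to 2.62 CPM, and -1.69 without E12.5 cell 2. Suz12 stayed between -0.45 and 0.15 in all 4 comparisons.

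PRC1, the complex that reads the PRC2 mark through Cbx proteins, had 6 of 18 genes past 2-fold in yolk sac over AGM, 8 in E12.5 over AGM, 6 in E14.5 over E12.5 and 4 in E14.5 over AGM. Cbx8 was at 1.23 CPM in AGM and 3.72 in yolk sac against 36.1 at E12.5 and 39.8 at E14.5. Its liver ratios to AGM were 4.06 and 4.19, at least 3.59 and 3.68 with any 1 cell left out, on reads in 3 of 48, 4 of 16, 5 of 16 and 6 of 16 cells. Cbx7, at 2.47 CPM in AGM and 16.9 at E12.5, had a ratio of 2.37 that was 1.02 without E12.5 cell 13. Phc1 was lower at E14.5 than at E12.5 at -2.75, from 25.98 to 3.01 CPM, and -2.05 without E12.5 cell 2 or -3.56 without E14.5 cell 4. Cbx2 had the largest PRC1 ratio in that comparison, higher at 3.70, with 0 reads at E12.5 and 247 at E14.5 in 4 of 16 cells. It was 2.39 without E14.5 cell 11. Pcgf2 was higher at 2.26, with all its E14.5 reads in cell 12, and -0.92 without that cell.

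Among 18 readers of methylated DNA and cofactors, 5, 8, 5 and 10 genes were past 2-fold in yolk sac over AGM, E12.5 over AGM, E14.5 over E12.5 and E14.5 over AGM. Gadd45b, a stress-response gene linked to DNA demethylation, had 1219 reads in AGM, 61 in yolk sac and 0 in both liver groups. The AGM reads were in 13 cells, 27.1% of that group, and AGM cell 23 held 20.3% of them. The yolk sac reads were in 3 cells, or 18.75%. With 1 CPM added, the log2 ratio to AGM was -4.41 at both liver ages. Reads copied by PCR in few cells are not separate counts, so no lower bound on the Gadd45b fold difference is given. Gadd45g was at 108 CPM in AGM and 35.6 in yolk sac but 8.24 in the earlier and 9.08 in the later liver, with E12.5 over AGM at -3.56, and -6.22 without E12.5 cell 13. Mbd4, a glycosylase that repairs deaminated methylcytosine, was higher at E14.5 than in AGM at 2.78, from 9.67 to 72.4 CPM, and 2.36 to 3.25 with any 1 cell left out. Of the 8 endothelial marker genes, 5 were at least 2-fold lower than in AGM at each liver age, beside 26% and 25.3% of all genes. Emcn and Sox18 were near their AGM levels at both ages. The part of endothelial transcripts in the difference of these genes was not tested.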

How the data were processed

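Single-cell RNA-seq was made with a SMART-Seq kit and 12 cycles of PCR, per the labels' protocols. FastQC, Trimmomatic 0.36, STAR, HTSeq and the build mm10 are named in the submitters' processing notes; the annotation release and strand setting are not given in the sources used here. The authors deposited 1 table of raw read counts per gene, 19949 rows by 96 cells. Of these rows, 113 repeated a symbol and were summed.

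Cells needed 1000 genes, which removed 0. Reads were pooled per group as CPM, ratios are log2 of CPM plus 1, and lists used genes with 30 reads. Levels between genes are per kilobase of GENCODE M21 exons, with the exons of all transcripts of a gene merged and genes matched by gene ID. The comparisons of groups are descriptions, since each group was 1 sample. The calculation of the ratios was checked on simulated counts, which says nothing of differences between embryos. Members and lists were chosen with earlier results of these data known. Named genes are all members, the 3 nearest genes by rho, and at most 3 genes per list and comparison by size of ratio, plus Suz12. One of the genes nearest to Uhrf1 is not reported here. Dnmt3l and Dppa3 were not analysed here. Exons shared with opposite-strand genes made up at most 6.82% of a member (Eed). Python 3.11.15, numpy 2.4.6, pandas 2.3.3 and scipy 1.17.1 were used.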

Additional observations from a re-analysis of the deposited data

How the results depend on the processing

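No paired analysis was possible because the cell numbers shared between groups name no animal or litter, and the results come from no test. Members past 2-fold in yolk sac over AGM stayed at 2 to 4 with any 1 cell left out and at 2 or 3 under the other settings, but against AGM cells 1 to 16 alone Dnmt3b dropped out and Ezh1 came in. In E12.5 liver over AGM the count of 1 became 2 when cell CPM values were averaged (Uhrf1 added) and ran from 1 to 4 with 1 cell left out. In E14.5 over E12.5 liver the count of 2 became 1 when cell CPM values were averaged, with 690000 reads drawn per cell, with 10 CPM added and without the deepest cell of each group, Tet2 being lost each time. It was 0 without the E14.5 wells above 1000 CPM of erythroid markers (Ezh1 and Tet2 lost), and ran from 1 to 3 with 1 cell left out. In E14.5 over AGM the count of 1 became 2 when cell CPM values were averaged (Dnmt3a), with 690000 reads (Tet3), against AGM cells 1 to 16 (Tet2) and without the erythroid wells (Uhrf1), became 3 without the deepest cells (Dnmt1 and Dnmt3a), and ran from 0 to 3 with 1 cell left out. Tet2 in E14.5 over E12.5 reversed to 0.26 without the deepest cells and ran from -4.26 without E14.5 cell 7 to 0.13 without E12.5 cell 2. With 10 CPM added, 5.39%, 14.54%, 15.6% and 13.1% of all genes passed 2-fold in the 4 comparisons in the order above. The cause was not tested. In a group of 16 cells, 1 cell is 6.25% of a share. Against all AGM cells, cells 1 to 16 had Tet2 reads in 62.5% in place of 37.5% and Tet3 reads in 75% in place of 47.9%.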
